A study of Sus scrofa with 17 samples.

Results

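Macrophages of the heart were followed through 10 marker genes, CD163, MRC1, LYVE1, FOLR2, VSIG4, F13A1, MARCO, MSR1, CCR2 and GPNMB. The markers were found by gene symbol in a table of read counts for 35670 genes. Each of the 10 symbols stood on 1 row, and all 10 were among the 15884 genes with enough counts to be tested. The 17 libraries were made from right ventricular heart muscle of pigs (Sus scrofa), and pressure overload of the right ventricle was common to all animals. Mononuclear cells of umbilical cord blood were given in several doses to 7 animals (multidose) and in a single dose to 5 (single dose), and the remaining 5 were treated with vehicle (vehicle control). Delivery was into the heart muscle, per the title of the series, and each library stands for a different animal, per its design text. Animals without pressure overload were not analysed here, and strain, age, doses and harvest times are not given in the labels used here.

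Cardiac macrophages are divided into a resident population, which takes up debris and maintains itself in the tissue, and cells that arise from blood monocytes. Monocytes enter injured tissue largely through the chemokine receptor CCR2. Resident macrophages of the heart carry scavenging and endocytic surface proteins such as CD163, the mannose receptor MRC1, the hyaluronan receptor LYVE1, the folate receptor FOLR2 and the complement receptor VSIG4, as described mainly in mouse and human hearts. Several of these genes are also used by other cells. LYVE1 is a lymphatic endothelial gene as well, F13A1 is made by megakaryocytes, and GPNMB occurs in many cells rich in lysosomes.

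The libraries differed in ways that bear on every comparison. Multidose 1 to 4 and single dose 1, 5 libraries in all, have names that start with M1, while the other 12, among them the 5 controls, have names that start with M8 or M9. The labels do not say what these names stand for. The M1 libraries held 21754800 to 40969168 counts and the others 40621934 to 61144663. Vehicle control 4 stood apart in several of the markers. It had the highest level of the 17 libraries for 4 of the 10 markers (CD163, MRC1, VSIG4 and F13A1) and the lowest for FOLR2, while it was highest for 8.96% of all genes tested. For VSIG4 it lay only just above multidose 4. Differences from control are therefore given with and without that animal, and the markers are also compared by library name. Levels are given as CPM, the read count relative to the library total after scaling by the trimmed mean of M values. Fold changes and differences are on the log2 scale, and a gene passed where its p, adjusted over all 15884 genes by the Benjamini-Hochberg method, was under 0.05. They are compared between libraries for the same gene, not between genes.

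**Figure D1:**
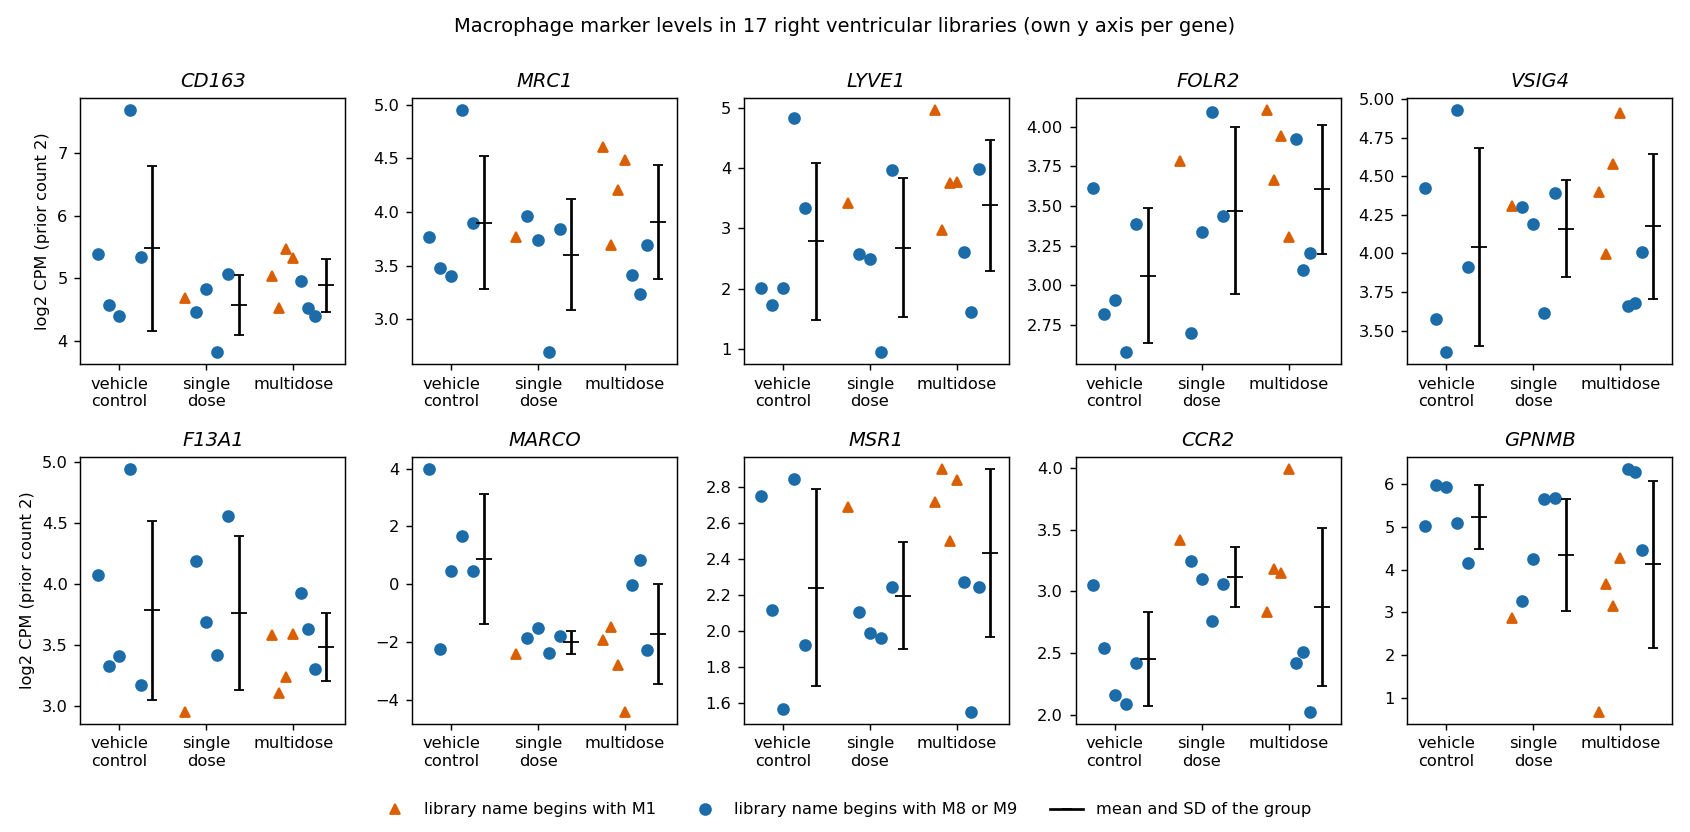
Levels of the 10 markers (y axis, log2 CPM with a prior count of 2, a separate scale per gene) in the 17 libraries by dosing group. Points are libraries, triangles those with M1 names and circles those with M8 or M9 names, and bars give the mean and SD of each group. Vehicle control 4 is the high circle for CD163, MRC1, VSIG4 and F13A1, vehicle control 1 is the high circle for MARCO, and the M1 libraries lie low for GPNMB.

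CD163, the receptor that clears complexes of haemoglobin and haptoglobin (ENSSSCG00000033146, chromosome 5, 63300200 to 63334497), measured 41.6, 23.8, 21.1, 207 and 40.2 CPM in vehicle controls 1 to 5. In single dose 1 to 5 it measured 25.6, 21.9, 28.4, 14.0 and 33.5 CPM. The multidose libraries ranged from 21.0 to 44.2 CPM with a median of 30.9 CPM. All the libraries apart from vehicle control 4 thus lay between 14.0 and 44.2 CPM, and the 3 groups overlapped. The log2 fold change was -1.12 (SE 0.45) for multidose against control and -1.43 (SE 0.50) for single dose against control, with adjusted p of 0.378 and 0.891 by edgeR. Without vehicle control 4 these values were -0.043 (SE 0.26) and -0.36 (SE 0.27). In bulk tissue, fewer cells of a type and less RNA per cell cannot be told apart.

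In vehicle control 4 CD163 stood 4.68-fold above the next highest library and 7.67-fold above the median of the other 16. Genes known to be induced by glucocorticoids were high in the same library. FKBP5, a chaperone gene of the glucocorticoid receptor, measured 275 CPM there against 20.8 to 67.7 CPM in the other 16. ZBTB16, a transcription factor gene, measured 97.3 CPM against 8.97 to 43.6, and the clock gene PER1 183 CPM against 28.7 to 112.9. Of the 9 glucocorticoid targets in the list other than CD163, 6 were highest in vehicle control 4. CD163 is itself known as a glucocorticoid-induced gene. Markers of monocytes and granulocytes were also high, with 6 of the 9 detected genes of that list at their highest there. CSF3R, the receptor of the granulocyte growth factor, measured 6.75 CPM against 0.627 to 4.85. The calprotectin gene S100A8, chosen after its values were seen, measured 2.23 CPM against 0 to 0.386. CD14, a lipopolysaccharide coreceptor of monocytes and macrophages, measured 32.1 CPM against 5.75 to 12.7. Of 19 pan-macrophage and myeloid genes CD14 was the only one at its highest there, with CD68 at 6.05 CPM against 3.05 to 10.7 and CSF1R, the receptor of the macrophage growth factor, at 95.7 CPM against 66.8 to 139.6. The part of the glucocorticoid and granulocyte genes in the CD163 level was not tested.

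**Figure D2:**
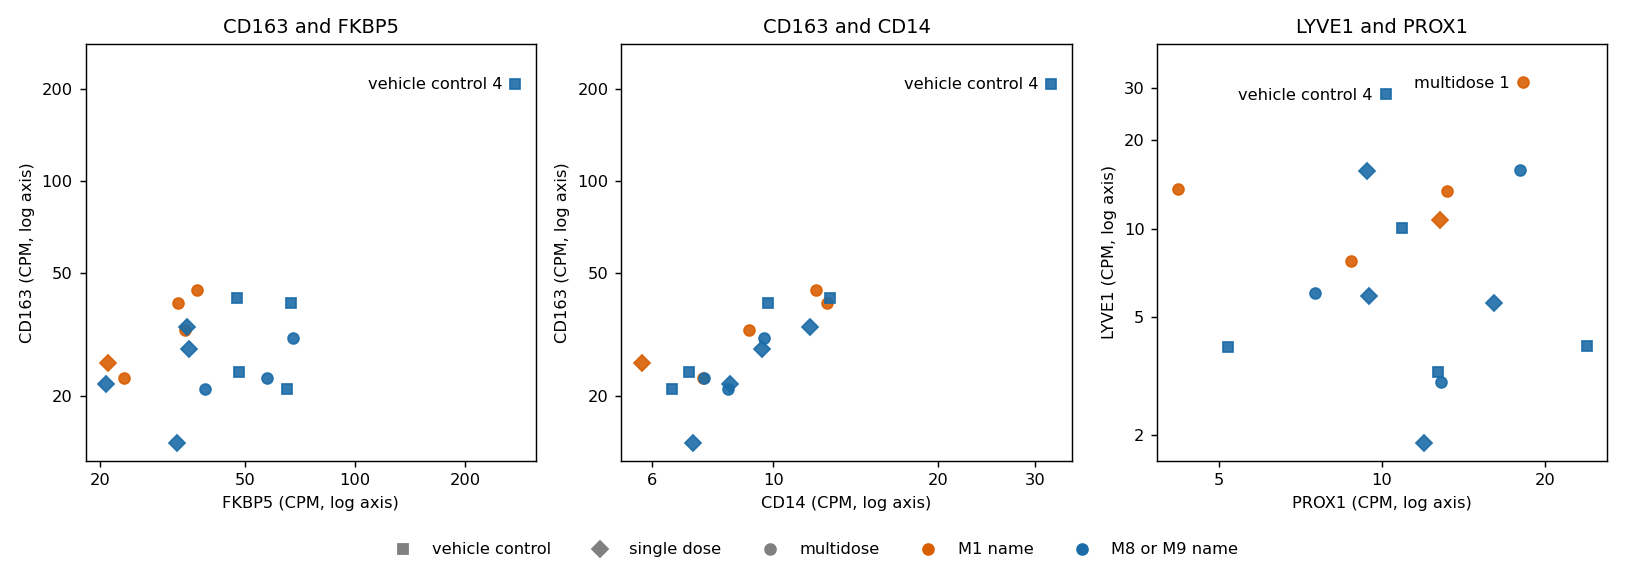
CD163 against FKBP5 and against CD14, and LYVE1 against PROX1, in the 17 libraries (CPM, log axes). Each point is a library, with its shape giving the dosing group and its colour the library name. Vehicle control 4 stands alone at 207 CPM of CD163, 275 CPM of FKBP5 and 32.1 CPM of CD14, while its LYVE1 level of 28.6 CPM goes with 10.2 CPM of PROX1.

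MRC1, the endocytic mannose receptor (ENSSSCG00000011038, chromosome 10, 44107926 to 44226734), measured 13.6, 11.12, 10.5, 30.9 and 14.9 CPM in vehicle controls 1 to 5. It ranged from 6.42 to 15.6 CPM in the single dose group and from 9.38 to 24.3 CPM in the multidose group. Its log2 fold change against control was -0.035 (SE 0.30) for multidose and -0.36 (SE 0.32) for single dose. Vehicle control 4 was again the highest, and without it the values were 0.34 and 0.017.

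VSIG4, a receptor for complement fragments on resident macrophages (ENSSSCG00000035170, chromosome X, 52175601 to 52198635), had group means that lay close together, at 18.9 ± 6.41 CPM (SD, n = 7) in the multidose group, 18.2 ± 3.46 CPM (SD, n = 5) after a single dose and 17.8 ± 8.26 CPM (SD, n = 5) in the controls. The log2 fold change was 0.084 for multidose against control, with a 95% interval from -0.47 to 0.64, and 0.027 for single dose against control, with an interval from -0.57 to 0.62. Leaving out vehicle control 4, the highest library, gave 0.37 (SE 0.25) and 0.31 (SE 0.26).

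F13A1, which encodes the coagulation factor XIII A chain (ENSSSCG00000024310, chromosome 7, 3751290 to 3900797), measured 30.7 CPM in vehicle control 4 and 23.6 CPM in single dose 5, the 2 highest libraries. The log2 fold change against control was -0.44 (SE 0.30) for multidose and -0.075 (SE 0.32) for single dose. These values were -0.027 (SE 0.25) and 0.34 (SE 0.27) without vehicle control 4. Of the 7 megakaryocyte and platelet genes listed, 2 had enough counts to be tested, ITGA2B and GP9. Their log2 fold changes for multidose against control were 0.25 and -0.049.

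LYVE1 (ENSSSCG00000029886, chromosome 2, 48937357 to 48954206) had the widest spread of the 6 resident markers, with an SD of 1.15 on the log2 scale over the 17 libraries against 0.46 to 0.83 for the other 5. It measured 3.97, 3.25, 4.001, 28.6 and 10.03 CPM in vehicle controls 1 to 5 and 10.7, 5.93, 5.60, 1.88 and 15.7 CPM in single dose 1 to 5. In the multidose group it ran from 3.005 to 31.4 CPM with a median of 13.4 CPM, the highest value being that of multidose 1. The groups overlapped throughout, and the log2 fold change against control was 0.38 (SE 0.62) for multidose and -0.33 (SE 0.67) for single dose. Without vehicle control 4 the multidose value was 1.30 and the single dose value turned to 0.58, and without multidose 1 the multidose value was -0.0043. Lymphatic genes, of which these 4 were chosen after their values were seen, did not share 1 pattern in vehicle control 4. The transcription factor gene PROX1 measured 10.2 CPM there against 4.196 to 23.9 CPM elsewhere, and MMRN1 13.4 CPM against 2.16 to 27.3 CPM. PDPN was at its highest of the 17 libraries, at 49.3 CPM against at most 38.1, and CCL21 at its lowest, at 12.2 CPM against at least 15.9. In multidose 1 PROX1 measured 18.2 CPM. The summed level of the lymphatic endothelial list of 9 genes ranged from 75.6 to 275.6 CPM in the multidose group, from 91.8 to 186.5 CPM in the single dose group and from 85.6 to 126.2 CPM in the controls. Of its 8 tested genes 7 were positive for multidose against control (median 0.37) and 7 for multidose against single dose (median 0.25). For single dose against control 4 were positive and 4 negative (median 0.067). None passed, and the part of lymphatic cells in the LYVE1 level was not tested.

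FOLR2, a folate receptor of resident macrophages (ENSSSCG00000014812, chromosome 9, 6785308 to 6790466), had values opposite to those of CD163 in vehicle control 4. It measured 12.2, 6.99, 7.44, 5.92 and 10.4 CPM in vehicle controls 1 to 5 and 13.8, 6.44, 10.1, 17.02 and 10.8 CPM in single dose 1 to 5. The multidose libraries ranged from 8.49 to 17.2 CPM with a median of 12.6 CPM. Multidose against control gave 0.54 (SE 0.24, adjusted p = 0.388 by edgeR) and single dose against control 0.43 (SE 0.26, adjusted p = 0.891 by edgeR). Without vehicle control 4 these values were 0.44 and 0.33, and among the M8 and M9 libraries alone the multidose value was 0.33 (SE 0.31).

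MARCO, a collagenous scavenger receptor for bacteria and particles (ENSSSCG00000015716, chromosome 15, 24502935 to 24541286), was the least detected of the 10 genes in these libraries, with 1415 counts in all. Of these counts 911 came from vehicle control 1. It measured 15.7, 0.164, 1.32, 3.09 and 1.32 CPM in vehicle controls 1 to 5, and in single dose 1 to 5 it had 3, 11, 12, 7 and 13 counts, or 0.138 to 0.301 CPM. The multidose libraries ranged from 0 to 1.74 CPM, with 0 counts in multidose 4, where a count of 0 allows up to 0.0711 CPM. Of the 5 controls, 4 lay above all 5 single dose libraries, while vehicle control 2 lay among them. Against control, edgeR gave -3.07 (SE 0.90, adjusted p = 0.366) for multidose and -4.32 (SE 1.10, adjusted p = 0.755) for single dose on the log2 scale. By DESeq2 the latter had an adjusted p of 0.0588. Without vehicle control 4 the values were -3.15 and -4.41, without vehicle control 1 they were -1.54 (SE 0.80) and -2.79 (SE 0.93), and without vehicle controls 1 and 4 they were -0.90 (SE 0.87) and -2.14 (SE 0.96). Vehicle control 1 stood apart in several cell types. It had the highest level of the 17 libraries for 6 of 19 pan-macrophage and myeloid genes, 7 of 12 T and natural killer cell genes and 4 of 9 blood vessel endothelial genes, while it was highest for 7.25% of all genes tested. It had the lowest level for 3 of 9 cardiomyocyte genes, for which the share of all genes was not counted. The part of these cell types in the MARCO level was not tested.

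MSR1, the class A macrophage scavenger receptor that takes up modified lipoproteins (ENSSSCG00000006979, chromosome 17, 3859903 to 3939612), ranged from 2.89 to 7.39 CPM over the 17 libraries. Its log2 fold change was 0.17 (SE 0.25) for multidose against control and -0.10 (SE 0.27) for single dose against control, with adjusted p of 0.787 and 0.960 by edgeR. They were 0.34 (SE 0.26) and 0.069 (SE 0.27) without vehicle control 4.

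CCR2 (ENSSSCG00000024311, chromosome 13, 29368735 to 29374564) measured 8.24, 5.76, 4.43, 4.199 and 5.32 CPM in vehicle controls 1 to 5. In single dose 1 to 5 it measured 10.6, 9.44, 8.51, 6.75 and 8.29 CPM. These groups overlapped, as vehicle control 1 lay above single dose 4. The multidose libraries ranged from 4.03 to 15.8 CPM with a median of 7.07 CPM. In edgeR, single dose against control gave 0.64 (SE 0.29, adjusted p = 0.891) and multidose against control 0.51 (SE 0.27, adjusted p = 0.437). Among the M8 and M9 libraries alone the single dose value was 0.55 (SE 0.20) and the multidose value -0.17 (SE 0.22), and without vehicle control 4 they were 0.56 and 0.43. CCL2, its main ligand gene, had log2 fold changes of 0.40 (SE 0.22) after multiple doses and 0.11 (SE 0.24) after 1 dose. For CCL8, another ligand gene, they were 0.64 (SE 0.28) and 0.59 (SE 0.30), and neither gene passed. The list of CCR2 ligands and related chemokine genes leaned the other way. Of its 9 tested genes 3 were positive and 6 negative for multidose against control (median -0.62). At an unadjusted p under 0.05 by edgeR there were 5 of 9, against 12.6% of all genes. For single dose against control 3 were positive and 6 negative as well (median -0.11), and none of the 9 passed in either comparison.

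GPNMB, a lysosomal glycoprotein of lipid-laden and phagocytic macrophages (ENSSSCG00000032241, chromosome 9, 92037428 to 92071501), measured 32.1, 62.1, 60.6, 34.0 and 17.8 CPM in vehicle controls 1 to 5. It measured 7.22, 9.58, 19.1, 49.6 and 50.5 CPM in single dose 1 to 5 and from 1.57 to 80.5 CPM in the multidose group. The multidose mean of 31.6 ± 32.8 CPM (SD, n = 7) had an SD above the mean. The log2 fold change against control was -0.38 (SE 0.71) for multidose and -0.60 (SE 0.77) for single dose, and the multidose value turned to 0.52 among the M8 and M9 libraries. With vehicle control 4 left out the values were -0.44 and -0.66.

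Over the 3 dosing comparisons none of the 10 markers passed. For multidose against control 0 of 10 markers and 0% of the 15884 genes had an adjusted p under 0.05 by edgeR. At an unadjusted p under 0.05 there were 3 of 10 (CD163, FOLR2 and MARCO), where 12.6% of all genes reached that level. For single dose against control the count was 0 of 10 against 0% of all genes, with 3 markers (CD163, MARCO and CCR2) at an unadjusted p under 0.05 against 5.26% of all genes. Both comparisons share the 5 control libraries, and the values of CD163 and MARCO moved as given above without vehicle controls 4 and 1. For multidose against single dose it was 0 of 10 against 0%, and 0 of 10 at an unadjusted p under 0.05, against 2.11% of all genes. The values of that comparison ran from -0.37 (F13A1) to 1.25 (MARCO), and each of the 10 intervals of 95% held 0. By DESeq2 and by limma-voom 0 of the 10 markers passed in any dosing comparison. The median log2 fold change of the 10 was 0.024 for multidose against control, -0.22 for single dose against control and 0.24 for multidose against single dose, while that of all genes lay between -0.0051 and 0.0025.

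**Figure D3:**
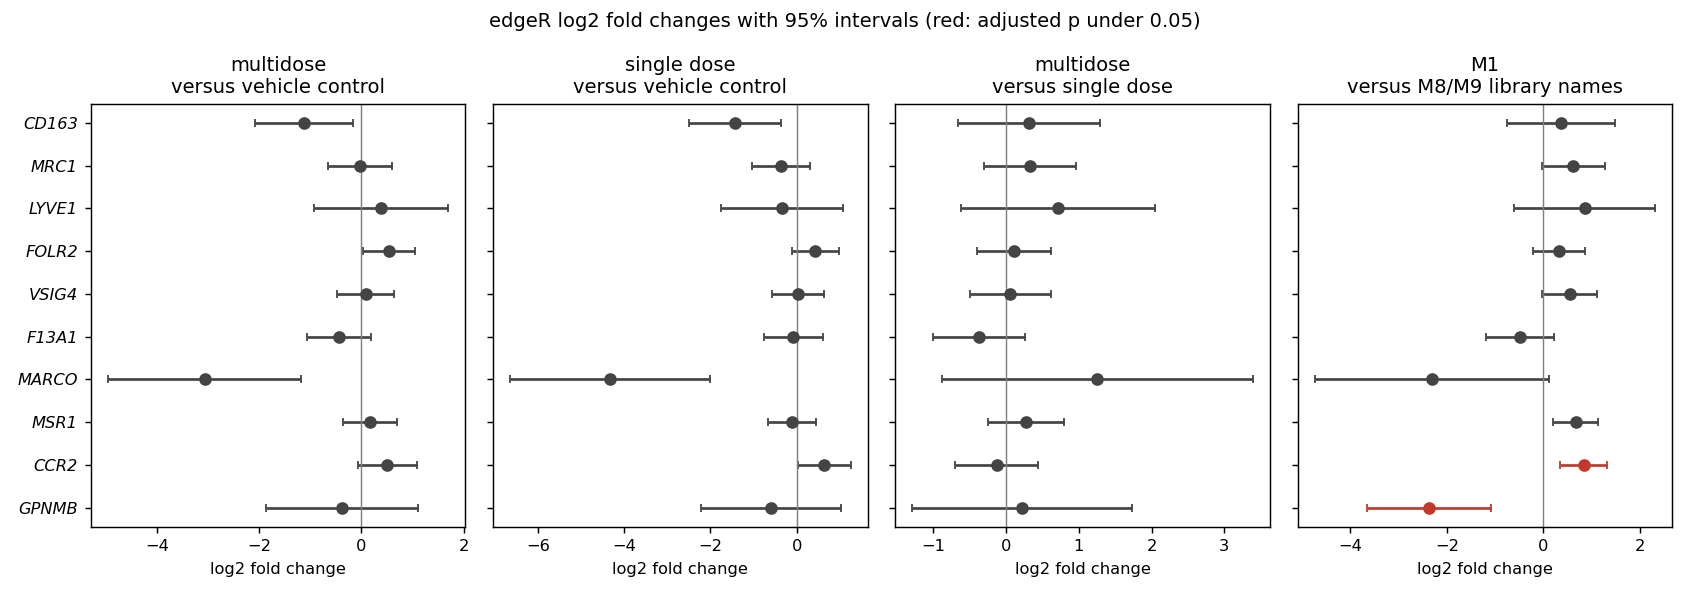
Log2 fold changes of the 10 markers (x axis) with 95% intervals in the 3 dosing comparisons and for M1 against M8 and M9 library names with the dosing group as a term. Red points had an adjusted p under 0.05 by edgeR. CCR2 (0.83) and GPNMB (-2.38), both by library name, are the only red points.

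Of 22 pan-macrophage and myeloid genes 19 were tested, of which 11 were positive and 8 negative for multidose against control (median 0.011), and 14 and 5 for single dose against control (median 0.085). None passed. CD68 stood at 0.037 (SE 0.23) and CSF1R at -0.12 (SE 0.16) after multiple doses. The complement genes C1QA, C1QB and C1QC, which resident macrophages express strongly, stood at 0.12, 0.13 and -0.011. Of 13 further genes of resident macrophages that were tested, 8 were positive and 5 negative (median 0.11), and TIMD4, an uptake receptor for dying cells, stood at -0.21 (SE 0.51). The 6 tested monocyte and granulocyte genes were all negative after multiple doses (median -0.40), with CSF3R at -1.29 (SE 0.56, adjusted p = 0.387 by edgeR). CSF3R was among the genes at their highest in vehicle control 4. Lists of other cell types leaned in this comparison as well, with all 12 tested T and natural killer cell genes (median -0.69) and all 7 mural genes (median -0.25) negative and 8 of 9 cardiomyocyte genes positive (median 0.31). The lymphatic endothelial list had 7 of 8 tested genes positive (median 0.37). None of these genes passed. Genes of haem and iron handling, the pathway downstream of CD163, went both ways. The biliverdin reductase genes BLVRB and BLVRA stood at 0.60 (SE 0.16) and 0.53 (SE 0.14) and HMOX1 at -0.80 (SE 0.26), and edgeR gave all 3 an adjusted p of 0.366. Vehicle controls 1 and 4 had the 2 highest HMOX1 levels, at 19.9 and 18.9 CPM against at most 8.81 CPM in the others. Of 10 tested glucocorticoid targets, CD163 among them, 9 were negative and 1 positive in each comparison with control, and none passed. At an unadjusted p under 0.05 by edgeR there were 7 of 10 for multidose, against 12.6% of all genes. For single dose there were 5 of 10, against 5.26% of all genes. CD163 and 6 of the other 9 were at their highest in vehicle control 4, which both comparisons share. The part of that animal in the values of the other 9 was not tested.

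The comparison by library name asked how far the markers followed a division that the dosing groups do not explain. It was made with the dosing group as a term, so that M1 libraries were set against M8 and M9 libraries within the dosed groups. It was chosen with earlier results of these data known. CCR2 was higher in the M1 libraries and GPNMB lower, and the other 8 markers did not pass. Thus 2 of 10 markers had an adjusted p under 0.05 by edgeR, against 14% of all genes. By direction this was 1 of 10 higher against 5.92% of all genes and 1 of 10 lower against 8.06%.

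CCR2 measured 7.07, 9.05, 8.81 and 15.8 CPM in multidose 1 to 4 and 10.6 CPM in single dose 1. Multidose 5 to 7 measured 5.31, 5.64 and 4.03 CPM, below all M1 libraries. Single dose 2 to 5, at 6.75 to 9.44 CPM, lay below the M1 library of their group but overlapped the multidose M1 libraries. The log2 difference was 0.83 (SE 0.23, adjusted p = 0.0265 by edgeR). The call ended without multidose 5 (adjusted p = 0.0590), 6 (0.0600) or 7 (0.0680) by edgeR, with values of 0.82, 0.85 and 0.70, while without the highest library, multidose 4, the value was 0.61 (adjusted p = 0.0493).

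GPNMB measured 1.57, 12.7, 8.81 and 19.3 CPM in multidose 1 to 4 and 7.22 CPM in single dose 1, against 80.5, 76.7 and 21.8 CPM in multidose 5 to 7. Single dose 2 to 5 measured 9.58 to 50.5 CPM. Within the multidose group the M1 libraries were lower without overlap, as were 11.9% of all genes. Single dose 1, the only M1 library of its group, was the lowest there. Across the groups there was overlap, as multidose 2 lay above single dose 2 and multidose 4 above single dose 2 and 3. The log2 difference was -2.38 (SE 0.60, adjusted p = 0.0191 by edgeR), which is a 5.20-fold lower level. The call ended without single dose 1 (-2.47, adjusted p = 0.0553) or multidose 6 (-2.22, adjusted p = 0.0501) by edgeR. Multidose 4, the M1 library as deep as the M8 and M9 libraries, had 19.3 CPM of GPNMB and the highest CCR2 level.

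MSR1 had a log2 difference of 0.67 (SE 0.22, adjusted p = 0.0518 by edgeR). The 5 M1 libraries measured 5.62 to 7.39 CPM and the 7 dosed M8 and M9 libraries 2.89 to 4.79 CPM, without overlap, but vehicle controls 1 and 4 measured 6.67 and 7.12 CPM. Of the 10 markers MSR1 alone lay higher without overlap among the 12 dosed libraries, where 4.19% of all genes did. Within the 7 multidose libraries CCR2 and MSR1 lay higher without overlap, where 10% of all genes did, and GPNMB lower, where 11.9% of all genes did. With the 7 multidose libraries fitted alone, the differences were 1.05 for CCR2, 0.71 for MSR1 and -2.46 for GPNMB, with adjusted p of 0.0652, 0.0923 and 0.0892 by edgeR.

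**Figure D4:**
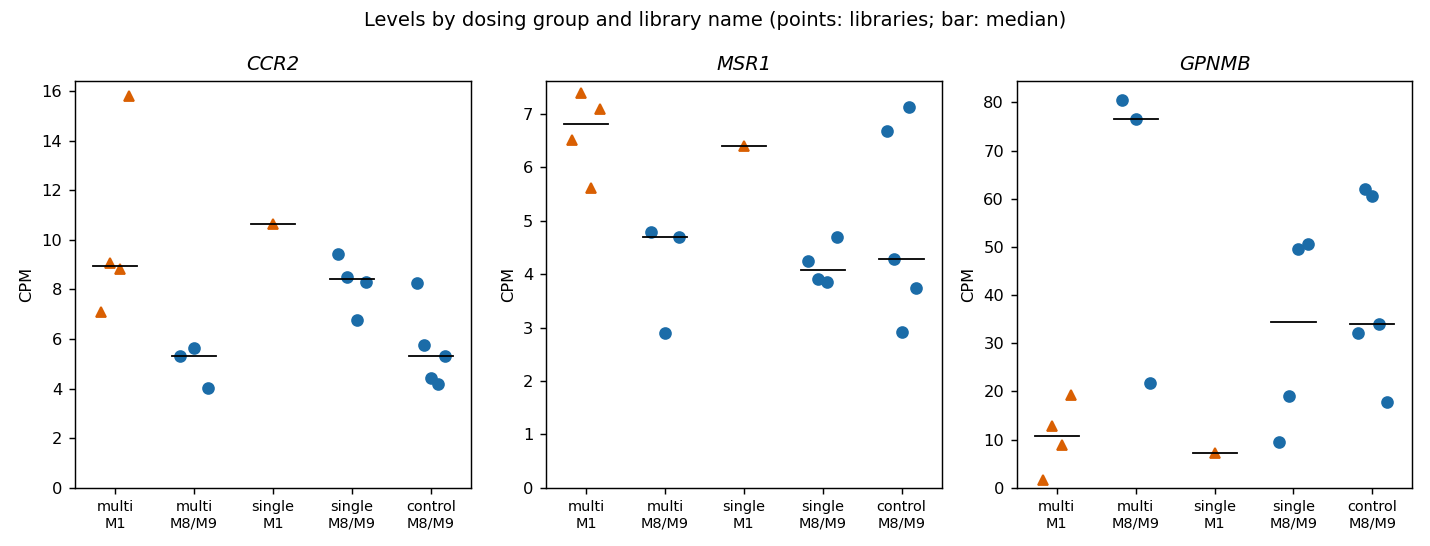
Levels of CCR2, MSR1 and GPNMB (y axis, CPM from 0) by dosing group and library name, with points for libraries and a bar for the median. In the multidose group the 4 M1 libraries lie above the 3 others for CCR2 and MSR1 and below them for GPNMB, and single dose 1 lies beyond the other single dose libraries in the same directions.

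None of the other 7 markers passed in the comparison by name. MRC1 stood at 0.62 (SE 0.31), VSIG4 at 0.55 (SE 0.27), LYVE1 at 0.86 (SE 0.69), CD163 at 0.36 (SE 0.53) and FOLR2 at 0.32 (SE 0.25). F13A1 stood at -0.49 (SE 0.33) and MARCO at -2.31 (SE 1.15), with 0 to 7 counts of MARCO in each M1 library. Of the 6 resident markers 5 were thus positive, with a median of 0.45 against -0.014 for all genes. Of 19 tested pan-macrophage genes 10 were positive and 9 negative (median 0.010), and none passed.

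Other macrophage lists held genes that passed by library name, as did 14% of all genes (5.92% higher and 8.06% lower). Among 13 tested genes of resident macrophages 3 rose in the M1 libraries and 0 fell, namely the growth factor gene IGF1 (1.25, SE 0.30), the transcription factor gene MAF (0.73, SE 0.24) and RBPJ (0.29, SE 0.096), the effector of Notch signalling. Of 17 tested genes of lipid-handling macrophages and lysosomes 2 rose and 4 fell. The lipid droplet gene PLIN2 stood at -1.20 (SE 0.23) and the lysosomal protease gene CTSD at -1.26 (SE 0.24), while LIPA, the lysosomal acid lipase gene, stood at 0.61 (SE 0.12). Of 10 tested genes of haem and iron handling 2 rose, SLC40A1 (0.80, SE 0.17), the iron exporter ferroportin, and BLVRA (0.42, SE 0.12). Among 9 chemokine system genes 2 fell, CX3CL1 (-1.26, SE 0.23), the ligand of the monocyte receptor CX3CR1, and CCL5 (-1.41, SE 0.36). CCL2 stood at 0.48 (SE 0.22) and did not pass.

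Markers of other cell types moved along the same division, by which 5.92% of all genes passed as higher and 8.06% as lower. Of 9 fibroblast genes 4 rose and 0 fell in the M1 libraries, with a summed level of 5003 to 8887 CPM against 3158 to 6729 CPM in the dosed M8 and M9 libraries and 4049 to 6983 CPM in the controls. Of 8 tested lymphatic genes 2 rose, CCL21 (1.45, SE 0.40) and RELN (1.34, SE 0.30), and the summed lymphatic level was 153 to 276 CPM against 75.6 to 186.5 CPM in the dosed M8 and M9 libraries. Of 3 tested red cell genes 1 rose, AHSP (2.30, SE 0.73), a haemoglobin chaperone gene, with a list median of 1.89. AHSP lay near the limit of counting, at 0.142 to 1.48 CPM in the M1 libraries and 0.0251 to 0.408 CPM in the dosed M8 and M9 libraries. The summed red cell level was 96.3 to 637 CPM in the M1 libraries, 25.5 to 186 CPM in the dosed M8 and M9 libraries and 60.01 to 501 CPM in the controls. Of 12 T and natural killer cell genes 4 fell, with a summed level of 25.5 to 48.9 CPM against 38.4 to 89.1 CPM. The part of these cell types and of depth in the CCR2 and GPNMB differences, and that of red cells in the haem and iron genes, was not tested.

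The markers also differed in how they varied together. M1 and other libraries form separate clusters, so relations were taken over the 12 M8 and M9 libraries, for 45 pairs. Dosing groups were pooled and libraries permuted across them, so differences between groups can enter each r and its p. Of the 45 pairs, 8 had an adjusted permutation p under 0.05 for Pearson's r and 0 for Spearman's rho. All 8 were among CD163, MRC1, LYVE1, VSIG4, F13A1 and MSR1. CD163 and MRC1 had r = 0.88 (permutation p = 0.00099, adjusted p = 0.0132) and rho = 0.65 (permutation p = 0.0253, adjusted p = 0.190), and r was 0.42 without single dose 4 and vehicle control 4, the libraries farthest from the median of CD163, on which the relation rested, and 0.70 without vehicle control 4 alone. MRC1 and VSIG4 had r = 0.84 (permutation p = 0.00056, adjusted p = 0.0126) and rho = 0.80 (permutation p = 0.00285, adjusted p = 0.128), and r was 0.80 without the same 2 libraries. MRC1 and LYVE1 had r = 0.83 (permutation p = 0.00042, adjusted p = 0.0126) and rho = 0.71 (permutation p = 0.0128, adjusted p = 0.182), and r was 0.59 without them. VSIG4 and F13A1 had r = 0.81 (permutation p = 0.00117, adjusted p = 0.0132) and rho = 0.69 (permutation p = 0.0162, adjusted p = 0.182), and r was 0.67 without vehicle controls 3 and 4. FOLR2 had negative r with the 5 other resident markers, between -0.60 and -0.24, of which none had an adjusted p under 0.05. Without vehicle control 4 these r lay between -0.44 and 0.085, and those with CD163, VSIG4 and F13A1 were positive. CCR2 turned sign with vehicle control 4, its r with CD163 being -0.26 (permutation p = 0.466) over the 12 libraries and 0.22 without that animal. The r of CCR2 with VSIG4 was 0.25 (permutation p = 0.436) over the 12 and 0.71 without it.

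**Figure D5:**
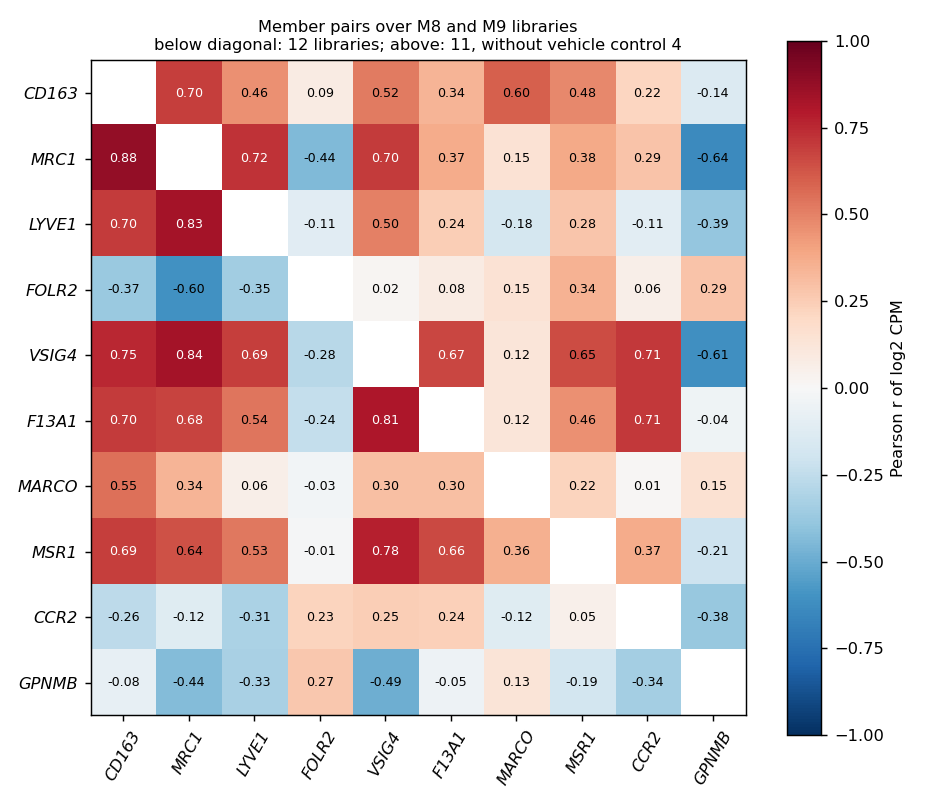
Pearson r of log2 CPM for the 45 pairs of markers over the 12 M8 and M9 libraries (below the diagonal) and over 11 of them, without vehicle control 4 (above). Colour and number give r. CD163, MRC1, LYVE1, VSIG4, F13A1 and MSR1 form the positive block, FOLR2 and GPNMB lie outside it, and the values of CCR2 with the genes of that block are higher without vehicle control 4.

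As a description, the genes whose pattern was most like the mean of the 10 standardised markers over these 12 libraries were taken from 11497 other genes. The highest r was that of CD53 (0.96), a leukocyte tetraspanin gene, followed by MARCHF1 (0.94), a ubiquitin ligase gene, CD14 (0.93) and MYD88 (0.93), an adaptor gene of innate receptors. SLC24A3 (0.92), an ion exchanger gene, ALOX5AP (0.92), of leukotriene synthesis, CD300C (0.90), a myeloid receptor gene, and SLC11A1 (0.90), a metal transporter gene of phagosomes, came next. These were picked as the highest values and carry no test. CD53, MARCHF1, CD14, SLC24A3, ALOX5AP and SLC11A1 were themselves at their highest in vehicle control 4. Without vehicle control 4 the r of the 8 genes lay between 0.78 and 0.97, with CD14 the highest of them. Ranked anew without that animal, only CD14, CD53 and MYD88 stayed among the 8 highest genes.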

How the data were processed

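The authors deposited 1 table of raw read counts per gene, with no normalization, for total RNA extracted with TRIzol and sequenced on an Illumina instrument, per the labels' protocols. FastQC 0.11.7, Trimmomatic 0.33, HISAT2 2.1.0, SAMtools 1.7, Subread 1.6.2 and the build Sscrofa11.1 are named in the submitters' processing notes. The strand setting is not given in the sources used here, so whether reads of antisense partners were kept apart is not known. Marker coordinates are those of RefSeq for Sscrofa11.1, matched by symbol. In R 4.3.3, counts were scaled by TMM, genes with low counts were removed (15884 of 35670 stayed), and edgeR 4.0.16 (quasi-likelihood test) was fitted on all 17 libraries. Log2 CPM used a prior count of 2. The comparison by library name had dosing group as a term. Alternatives used DESeq2 1.42.0, limma 3.58.1 (voom), other scalings and filters, covariates, and fits without each library. The procedure was tested on simulated data. Correlations used 100000 permutations. Counting floors cover counting error only.

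The markers and the 24 gene lists (245 genes, 192 tested) were chosen with earlier results of these data known. Named genes were the 10 markers, at most 3 genes per list with the smallest p in the comparison described, CD68, CSF1R, CD14, C1QA, C1QB, C1QC, CCL2, CSF1, TIMD4 and TREM2, and the 8 genes most like the markers. Others are marked as chosen after their values were seen.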

Additional observations from a re-analysis of the deposited data

Results flagged for a closer look

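Of 40 sets of values examined (10 markers in the 3 dosing groups and in the M1 libraries), 7 held a library far from the rest by Dixon's criterion applied to CPM. Chance flags about 1 in 20 where values follow a normal distribution, and more high values where they are skewed, as CPM can be. The M1 sets reuse libraries of the dosing groups. CD163 measured 207 CPM in vehicle control 4 against 21.1 to 41.6 CPM in the other 4 controls. MRC1 measured 30.9 CPM in the same animal against 10.5 to 14.9 CPM, and LYVE1 measured 28.6 CPM against 3.25 to 10.03 CPM, so that 3 of the 7 fell on vehicle control 4. MARCO measured 15.7 CPM in vehicle control 1 against 0.164 to 3.09 CPM. MRC1 measured 6.42 CPM in single dose 4 against 13.3 to 15.6 CPM in the rest of its group. LYVE1 measured 31.4 CPM in multidose 1 against 7.79 to 13.6 CPM in the other M1 libraries. CCR2 measured 15.8 CPM in multidose 4 against 4.03 to 9.05 CPM in the other multidose libraries. On log2 CPM 1 of the 7 passed the criterion, that of MRC1 in single dose 4, beside VSIG4 in the same library (12.2 CPM), and CD163 in vehicle control 4 fell just short, with a ratio of 0.703 against a critical value of 0.71. The causes were not tested.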

How the results depend on the processing

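No marker passed in any dosing comparison under any alternative run. The number of all genes called for multidose against control was 8 by DESeq2 and 1 with the replicate block, and for single dose against control it was 10 by DESeq2. By leaving out 1 library it ranged from 0 to 1 for single dose against control and from 0 to 1 for multidose against single dose. By library name the 2220 calls became 3003 by DESeq2, 3783 without the dosing group term, 712 in the multidose libraries alone and 10 without the 4 shallowest libraries, all M1 (chosen after seeing the data, as were the fits without vehicle control 4 among M8 and M9 libraries and without vehicle controls 1 and 4), and 858 to 2745 by leaving out 1 library. The 2 markers called became 4 with the name suffix as a covariate, 3 by DESeq2, and 0 in the multidose libraries alone or without the 4 libraries, and 0 to 3 by leaving out 1 library. Without the 4 libraries the values were 1.67 for CCR2 (adjusted p = 0.0876 by edgeR) and -1.61 for GPNMB (adjusted p = 0.506 by edgeR). That fit leaves 1 M1 library, assumed to vary like the others. Same-numbered samples had correlations from -0.22 to 0.41, over 0.1 in 4 of 15 pairs. The highest was that of multidose 1 and single dose 1, both with M1 names. Library name was not taken into account, so these values cannot tell whether the numbers pair the animals. With the replicate block 11 genes and 0 markers were called by library name, CCR2 standing at 0.54 and GPNMB at -1.85.

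Several differences that had not passed turned direction, and the causes were not tested. For multidose against control, M1 name as a covariate gave -0.18 for LYVE1, -0.27 for VSIG4, -0.25 for MSR1, -0.044 for CCR2 and 0.47 for GPNMB. The M8 and M9 libraries alone gave -0.27 for LYVE1, -0.38 for VSIG4, -0.28 for MSR1, -0.17 for CCR2 and 0.52 for GPNMB, and without vehicle control 4 they gave -0.093 for VSIG4, 0.090 for F13A1, -0.11 for MSR1, -0.26 for CCR2 and 0.46 for GPNMB. Without vehicle controls 1 and 4 the values were 0.10 for CD163, 0.37 for MRC1 and 0.19 for F13A1. For single dose against control, VSIG4 stood at -0.074 with M1 name as a covariate and -0.012 in the M8 and M9 libraries. F13A1 stood at 0.038 by limma-voom and 0.075 in the M8 and M9 libraries. Among those without vehicle control 4, LYVE1 stood at 0.45 and F13A1 at 0.49. Without vehicle controls 1 and 4 the values were 0.046 for MRC1, 0.46 for LYVE1, 0.56 for F13A1 and 0.33 for MSR1. For multidose against single dose, the M8 and M9 libraries gave -0.18 for MRC1, -0.033 for FOLR2, -0.37 for VSIG4 and -0.026 for MSR1, and without vehicle control 4 they gave -0.18, -0.034, -0.37 and -0.026. FOLR2 stood at -0.018 with M1 name and -0.070 with the suffix as a covariate, VSIG4 at -0.19 with M1 name, and GPNMB at -0.13 by limma-voom. By library name, CD163 stood at -0.35 without the dosing group term and FOLR2 at -0.14 without the 4 shallowest libraries. With the replicate block MRC1 stood at 0.15 for multidose against control, CCR2 at 0.056 and GPNMB at -0.52 for multidose against single dose, and FOLR2 at -0.10 by library name.

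Leaving out 1 library turned these values. For multidose against control MRC1 ranged from -0.17 to 0.34, LYVE1 from -0.0043 to 1.30 and VSIG4 from -0.067 to 0.37. For single dose against control MRC1 ranged from -0.48 to 0.017, LYVE1 from -0.75 to 0.58, VSIG4 from -0.12 to 0.31, F13A1 from -0.33 to 0.34 and MSR1 from -0.24 to 0.069. For multidose against single dose FOLR2 ranged from -0.048 to 0.29, VSIG4 from -0.094 to 0.14 and GPNMB from -0.20 to 0.56. MSR1, just short of the threshold by library name, was called by DESeq2 (adjusted p = 0.0253) and by edgeR with upper-quartile scaling (0.0461), with a filter of 1 CPM in 5 libraries (0.0479), with the suffix as a covariate (0.0431), without the dosing group term (0.0304) and without vehicle control 1, 3 or 4 (adjusted p = 0.0220 to 0.0392). VSIG4 was called with the suffix as a covariate (0.88, adjusted p = 0.0305 by edgeR). The adjusted p of MSR1 ranged from 0.0220 to 0.673 over all alternatives. Depth limits MARCO most, at 0 to 76 counts in the dosed libraries.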

Other observations

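Within a library, the ratio of counts of 2 markers does not depend on depth. CD163 per VSIG4 count was 6.80 in vehicle control 4 and 1.11 to 2.68 in the other 16 libraries. CCR2 per 100 VSIG4 counts was 13.8 in vehicle control 4 and 25.1 to 56.9 in the others.

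ACKR2 and ACTC1 were picked after their values were seen. ACKR2, a chemokine scavenging receptor gene, measured 98.6 CPM in vehicle control 4 against 6.75 to 23.4 CPM in the other 16 libraries. ACTC1, the cardiac actin gene of cardiomyocytes, measured 254 CPM there against 826 to 4360 CPM, the lowest of the 17. It was the 1 gene of the 9 cardiomyocyte genes at its lowest there, and the other 8 lay within the range of the other libraries. No explanation of these values was tested.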
